A study of Rattus norvegicus and Mus musculus with 251 samples.

Results

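The Egr (early growth response) transcription factors of the mouse, Egr1, Egr2, Egr3 and Egr4, were followed through 2 brain regions and 4 drinking conditions. The 4 genes were taken by symbol from a table of 46078 mouse genes, 1 row each. All 4 passed the filter on low counts in both regions. The series covered 251 libraries, and the 62 mouse libraries were used here. They came from C57BL/6J mice of both sexes that drank either a saline or a morphine solution, with tissue punches of 0.5 mm from the prefrontal cortex (PFC) and the nucleus accumbens (NAc). The groups were Sal (saline), Chronic (morphine, with no time stated), 24h (24 h after morphine) and 2W (2 weeks after morphine). PFC had 6 Sal, 8 Chronic, 9 24h and 7 2W libraries, and NAc had 7, 8, 9 and 8. No allele or transgene was named for any group, and age, dose and length of drinking were not given in the sources used here. The labels number the libraries within a region and do not say whether each came from its own mouse, so p-values measure the spread between these libraries.

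Egr proteins are zinc finger transcription factors that bind GC-rich sites through a nearly shared DNA-binding domain. In neurons their genes are immediate early genes: synaptic activity switches them on within minutes through kinase cascades that act on serum response factor and CREB, without new protein synthesis. Egr1 is the member most used as a marker of recent neuronal activity, Egr2 is also known as the regulator of myelin genes in Schwann cells, Egr3 is known for its part in memory and in muscle spindle development, and Egr4 is the member with the most divergent protein. The co-repressors Nab1 and Nab2 bind Egr1, Egr2 and Egr3 and limit their activity.

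In GRCm38 with the GENCODE M21 annotation, Egr2 (ENSMUSG00000037868) lies on the plus strand of chromosome 10 from 67535475 to 67542188, and Egr3 (ENSMUSG00000033730) lies on the plus strand of chromosome 14 from 70077203 to 70082614. Egr4 (ENSMUSG00000071341) lies on the minus strand of chromosome 6 from 85511121 to 85513589. All 4 members, Egr1 (ENSMUSG00000038418) included, are protein-coding, and 0 annotated genes overlap any of them. Although the members resemble each other, reads of 75 bases tell them apart: 0 of the members' runs of 75 transcript bases occurred in a transcript of another annotated gene.

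Promoters were at hand for the rat genes Egr1, Egr2 and Egr4 (RefSeq, build GRCr8), and none for Egr3. A 200-base part is shown for Egr2, with a CArG box, and for Egr4, without one. Capitals mark the CArG box, the motif bound by serum response factor, and TGACG on either strand, the core of a CREB site.
Egr2, chr20:21054442-21054641, minus strand: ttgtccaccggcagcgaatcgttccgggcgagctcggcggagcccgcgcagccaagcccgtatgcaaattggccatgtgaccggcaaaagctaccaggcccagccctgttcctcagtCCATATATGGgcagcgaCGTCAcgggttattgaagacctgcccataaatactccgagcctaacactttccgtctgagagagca
Egr4, chr4:119607818-119608017, minus strand: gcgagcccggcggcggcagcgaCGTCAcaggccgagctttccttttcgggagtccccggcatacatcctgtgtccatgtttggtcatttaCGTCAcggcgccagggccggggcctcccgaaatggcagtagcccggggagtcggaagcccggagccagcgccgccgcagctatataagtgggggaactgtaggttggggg
The rat Egr2 promoter held 1 CArG box starting 83 bases before the start site and 1 TGACG at 66 bases before it, in the full window from 250 bases before to 50 bases after the start. The Egr4 window held no CArG box and 2 TGACG matches, at 178 and 110 bases before the start. The Egr1 window, not printed, held 2 CArG boxes and 2 TGACG matches. Whether the matches relate to the levels in mouse was not tested. Of 33469 rat promoters in the table, 1.64% held a CArG box and 21.2% held TGACG, on either strand. These matches describe letters in the rat sequence and were not measured as binding sites.

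Reads counted to genes had a median of 29999922 per library in PFC and 32159518 in NAc. The lowest was 5182601 in PFC 2W replicate 10, and the next lowest of all libraries was 22387525. The labels call the cells neurons, but the punches held other cells too: summed oligodendrocyte markers were 2887 to 12677 CPM (counts scaled to library size), and astrocyte markers were also present in every group. Of the 6 cortical projection neuron markers, 0 were at 0 throughout PFC, and of the 8 striatal projection neuron markers, 0 were at 0 throughout NAc. The same held in the other region, so this does not tell the regions apart. In saline the summed cortical markers had medians of 2542 CPM in PFC and 59.0 in NAc, and the striatal ones 207.6 and 2641.5. Libraries of number 27, labelled female, had Xist at 0 CPM in PFC and 1.03 CPM in NAc, and the Y-linked Ddx3y at 52.5 and 77.5 CPM, in the range of the males. NAc libraries 2, 6, 23 and 25 had the lowest level of the striatal marker Drd1, at 31.8, 8.94, 30.2 and 11.2 CPM, against a NAc median of 124. The PFC range was 0 to 9.21 CPM. Summed striatal markers of NAc 6 and 25, at 251 and 312 CPM, lay within the PFC range of 145 to 334. Numbers 2 and 6 are saline libraries, and all 4 were kept unless their removal is stated. PFC Chronic replicate 31 had summed choroid plexus markers of 3364 CPM, against at most 150 CPM in the other PFC libraries, and NAc 24h replicate 24 had summed cortical markers of 658 CPM, against 32.8 to 122 CPM in the other NAc libraries. A set of 4 pseudogenes (Gm10263, Gm10260, Gm12901 and BC023719) split all 62 libraries into a high and a low class. Saline females and all 2W libraries were low, and saline males and all Chronic libraries were high. At 24 h, 2 males were low in each region and the other 7 libraries were high. The comparison of 2W with Chronic therefore cannot be told apart from this class, and comparisons with saline are also given within it. In saline the class was the same split as labelled sex. A comparison within a class therefore sets saline of 1 sex against morphine libraries that are not all of that sex.

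In saline PFC the members ranked Egr1, Egr4, Egr3, Egr2. Per kilobase of exon, mean levels were 231 ± 73 CPM (SD, n = 6) for Egr1, 63.3 ± 24.2 for Egr4, 21.2 ± 5.34 for Egr3 and 12.7 ± 3.99 for Egr2. The ranges of Egr2 (7.78 to 18.3) and Egr3 (15.5 to 29.3) met, but the order held within each of the 6 libraries. Saline NAc had the same order, with means of 32.1 ± 13.2 for Egr1, 16.1 ± 9.21 for Egr4, 6.57 ± 3.86 for Egr3 and 1.87 ± 1.38 for Egr2 (SD, n = 7). In PFC under chronic morphine, Egr4 (15.7 to 35.4 CPM per kilobase) and Egr3 (9.18 to 38.2) were no longer apart, and Egr4 was the higher in 5 of 8 libraries.

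All 4 transcripts were lower in NAc than in PFC of saline mice, with NAc libraries 2 and 6, low in Drd1, included. In CPM without regard to length, Egr1 had a median of 995 (668 to 1588) in PFC and 142 (79.5 to 245) in NAc. The log2 difference, NAc minus PFC, was -2.82 ± 0.29 for Egr1 (SE, edgeR adjusted p = 1.16e-11), -2.74 ± 0.48 for Egr2 (adjusted p = 6.68e-06), -1.67 ± 0.37 for Egr3 (adjusted p = 0.000301) and -1.93 ± 0.34 for Egr4 (adjusted p = 7.37e-06). In that comparison 35.9% of the 19266 genes tested were called (adjusted p under 0.05) and 18.5% were called lower, so a call by itself was common. The 22 other immediate early genes examined were all lower in NAc as well.

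**Figure D1:**
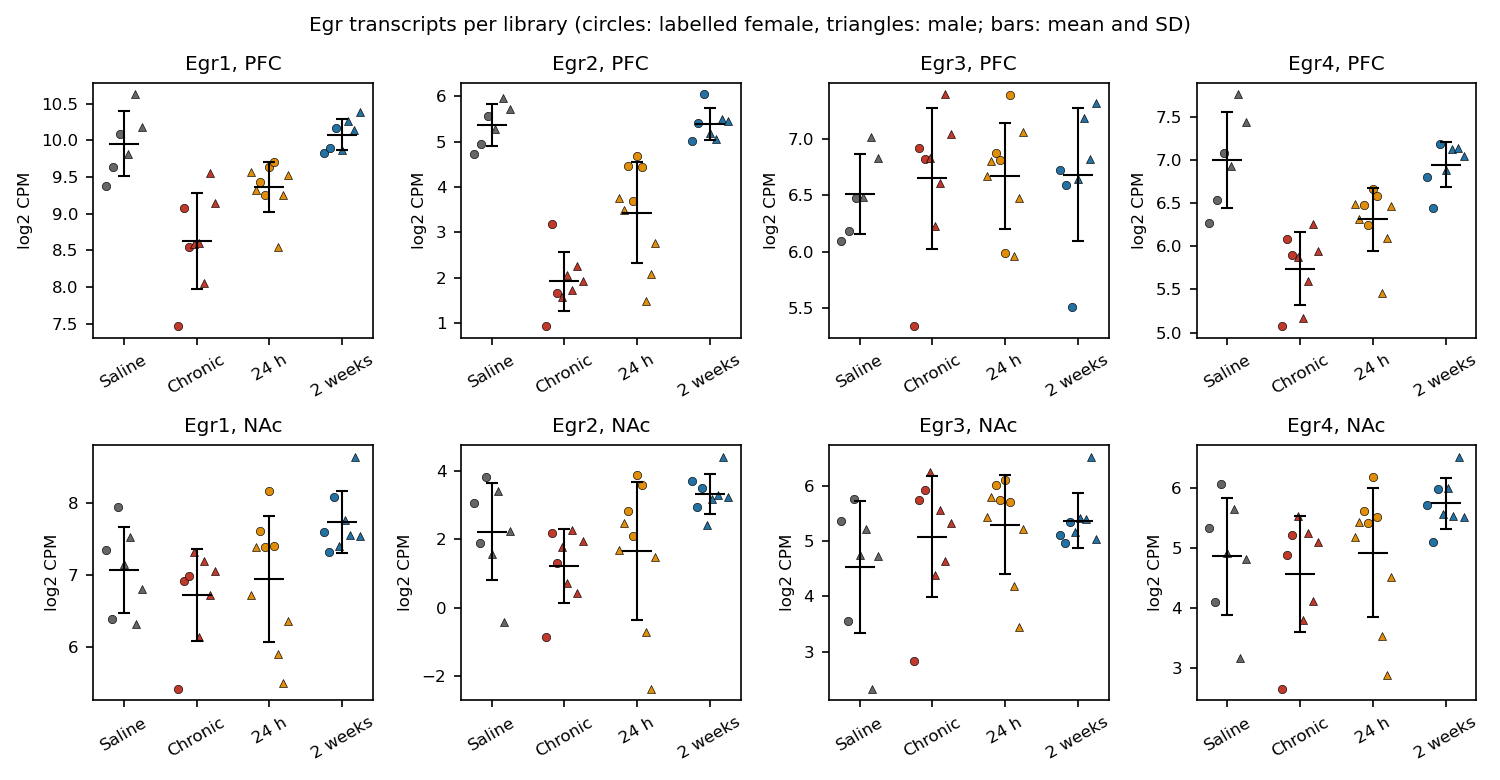
Level of each Egr transcript on the log2 CPM scale (y axis) in every library of PFC (upper row) and NAc (lower row), by drinking condition (x axis). Circles are libraries labelled female, triangles male, and bars the mean and SD. In PFC, all 8 Chronic libraries of Egr2 and Egr4 lie below the saline libraries, and those of Egr3 spread over them.

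The first comparison asked how the family differed from saline under chronic morphine in PFC. Egr1, Egr2 and Egr4 were lower, and Egr3 did not pass the test. For Egr2, saline libraries had a median of 43.2 CPM (26.4 to 62.3) and chronic libraries 3.52 CPM (1.85 to 9.0). All 8 chronic libraries lay below the lowest saline library, and the log2 fold change was -3.35 ± 0.32 (SE, n = 8 and 6, edgeR adjusted p = 1.65e-07), a level 0.098 times that of saline. Among the 75 genes called in this comparison, Egr2 had the third largest fall. Whether fewer cells held these transcripts or each cell held less cannot be told apart in such tissue RNA.

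Egr4 had a median of 128 CPM (76.9 to 217) in saline and 59.0 CPM (33.6 to 76.1) in chronic PFC. Again all 8 chronic libraries were below every saline library, and the log2 fold change was -1.26 ± 0.18 (edgeR adjusted p = 0.000212). Egr1, the most abundant member, had a median of 995 CPM (668 to 1588) in saline and 386 CPM (177 to 752) in chronic libraries. Of the 8 chronic libraries, 7 were below the lowest saline library (all but replicate 31), with a log2 fold change of -1.30 ± 0.21 (edgeR adjusted p = 0.00109). Of 17966 genes tested, 0.417% were called and 0.306% were called lower, against 3 of the 4 members. Over all genes, 0.373% had every chronic library below every saline library.

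Egr3 stood apart from the other members. Its median was 89.1 CPM (68.3 to 129) in saline and 113 CPM (40.4 to 168) in chronic PFC, with 1 chronic library below and 2 above the saline range. The log2 fold change was 0.16 ± 0.23 (edgeR adjusted p = 0.944), with a 95% interval of -0.31 to 0.63. That interval ends well short of the falls estimated for the other 3 members, so the spread between libraries was not too wide to show a change of their size. Replicate 31, the library with high choroid plexus markers, was the highest chronic library for Egr1, Egr3 and Egr4. Without it the log2 fold changes were -1.42 ± 0.20 for Egr1 (edgeR adjusted p = 0.000158), -3.40 ± 0.34 for Egr2 (adjusted p = 5.45e-07), 0.08 ± 0.23 for Egr3 (adjusted p = 0.991) and -1.33 ± 0.18 for Egr4 (adjusted p = 9.77e-05).

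The pseudogene class was examined because it overlaps the groups. Among libraries of the high class, the 8 chronic PFC libraries, of both sexes, were compared with the 3 saline males, so the class was held but sex was not. The log2 difference was -1.58 for Egr1, -3.73 for Egr2 and -1.64 for Egr4, each without overlap and each with an exact two-sided permutation p of 0.00606, the smallest that 165 arrangements can give (n = 8 and 3, 0.0339 adjusted over 56 such tests). Egr3 differed by -0.13 (exact p = 0.782, n = 8 and 3). In saline PFC the males had higher mean log2 CPM than the females. The means were 10.2 and 9.70 for Egr1, 5.65 and 5.08 for Egr2, 6.77 and 6.25 for Egr3 and 7.37 and 6.62 for Egr4. How much of the differences within the class goes with sex was not tested. The share of all genes without overlap is not given for comparisons within a class. With 3 saline libraries non-overlap is easier to reach than with all of them. With the class as a covariate beside sex, the class effect rested on the 24h males alone. In that fit Egr2 passed at -2.63 ± 0.35 (edgeR adjusted p = 0.000314), while Egr1 at -1.15 ± 0.28 (adjusted p = 0.318) and Egr4 at -1.09 ± 0.24 (adjusted p = 0.132) did not, and 0.0593% of genes were called lower. With the class in place of sex all 3 passed, at -1.36 (adjusted p = 0.00166), -3.57 (adjusted p = 1.89e-06) and -1.43 (adjusted p = 0.000106) for Egr1, Egr2 and Egr4, with 0.199% of genes called lower.

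At 24 h after morphine, Egr2 was the member called lower in PFC in the fit of all libraries. Its median was 13 CPM (2.74 to 25.6), between the chronic and saline medians, and all 9 libraries lay below the lowest saline library. The log2 fold change was -1.75 ± 0.28 (edgeR adjusted p = 0.00203, n = 9 and 6), in a comparison that called 0.0779% of genes, 0.0724% lower, and in which 0.134% of genes had every library below saline. With the pseudogene class beside sex as a covariate the change was -1.40 ± 0.29 (adjusted p = 0.073). Egr1 had a median of 694 CPM (374 to 837) and Egr4 one of 88.6 CPM (44.0 to 101). Their log2 fold changes of -0.59 ± 0.20 (edgeR adjusted p = 1) and -0.68 ± 0.17 (adjusted p = 0.261) did not pass, with 4 and 3 of 9 libraries below the saline range. Egr3 had a median of 112 CPM (62.1 to 167) and a log2 fold change of 0.21 ± 0.22.

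Within the pseudogene classes the calls at 24 h in PFC fell on other members. The 7 libraries of the high class, females and males, differed from the 3 saline males by -0.87 for Egr1 and -1.09 for Egr4, both without overlap (exact p = 0.00833 each, the smallest that 120 arrangements give, 0.0389 adjusted over 56 tests, n = 7 and 3). Egr2 differed by -2.28, also without overlap, and did not pass (exact p = 0.025, adjusted 0.0875, n = 7 and 3), and Egr3 differed by -0.12 (exact p = 0.717). In the low class, 2 males against 3 saline females, the smallest p possible was 0.1, so none could pass, and Egr2 differed by -1.46 without overlap. Both the libraries and the test differed from the edgeR fit of all libraries. The change in which members were called at 24 h therefore cannot be given to either alone. For non-overlap within a class no share over all genes is given.

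At 2 weeks, the PFC medians were 1135 CPM for Egr1 (910 to 1340), 42.4 CPM for Egr2 (32 to 66.1), 105 CPM for Egr3 (45.5 to 159) and 132 CPM for Egr4 (87.0 to 146). None of the 4 was called against saline (edgeR, 0.00557% of genes called). At an unadjusted p under 0.05 the count was also 0, against 5.04% of all genes. The log2 fold changes lay between -0.08 and 0.17, and the widest 95% interval, that of Egr2, ran from -0.58 to 0.66. Within the low pseudogene class, against the 3 saline females, the differences were 0.30 to 0.43 and none passed (exact p from 0.0833 to 0.317, n = 7 and 3). The 2W libraries were of both sexes, so sex was not held there. Egr3 was lowest in replicate 10, the shallow library, at 45.5 CPM from 248 reads.

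**Figure D2:**
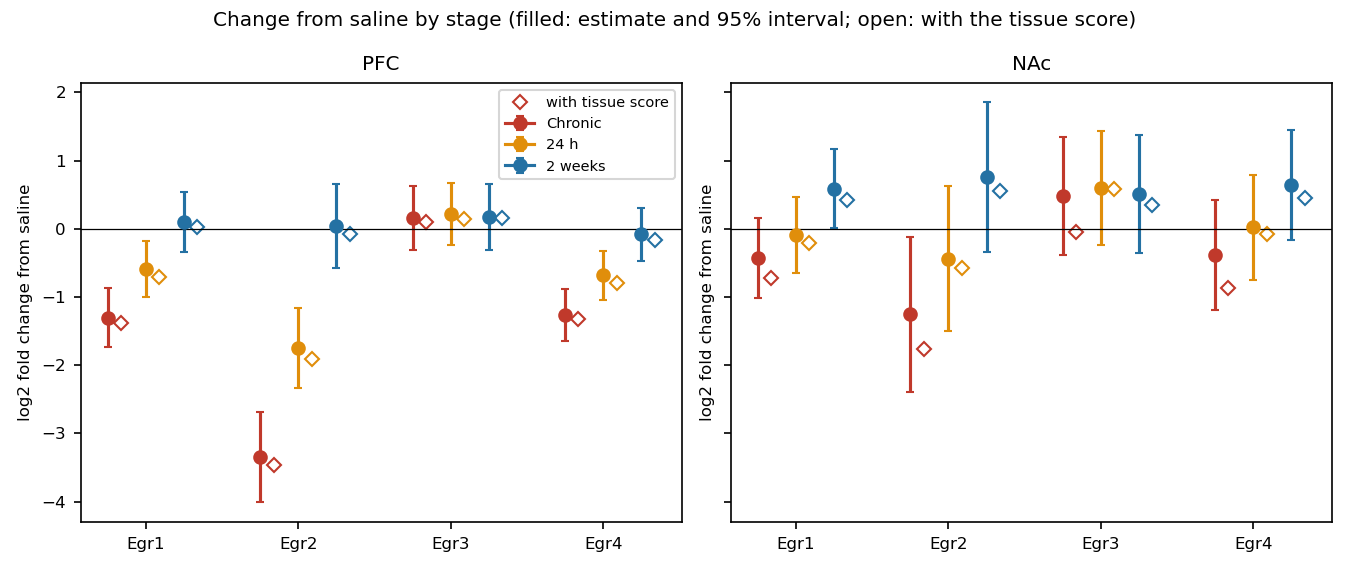
Log2 fold change from saline (y axis) of each member (x axis) in PFC (left) and NAc (right) for Chronic, 24 h and 2 weeks. Filled points are the edgeR estimates with 95% intervals, and open diamonds the estimates with the tissue score as a covariate. Egr2 in PFC goes from -3.35 to -1.75 to 0.04, and Egr3 is above 0 in all 6 filled points, though at -0.05 in chronic NAc with the tissue score.

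The times after morphine were also compared with each other in PFC. Between chronic and 24 h, Egr2 rose by a log2 difference of 1.60 ± 0.29 (edgeR adjusted p = 0.0315), among 0.0278% of genes called and 0.0167% called higher. This call was lost in 13 of the 30 fits that left out 1 library and when number 27 was counted as male (adjusted p = 0.141). From 24 h to 2 weeks Egr2 was higher by 1.79 ± 0.28 (edgeR adjusted p = 0.000831, with 0.15% of genes called and 0.0835% called higher), and no other member passed. All 24h libraries but 2 males were of the high and all 2W libraries of the low pseudogene class, so this rise too is largely shared with the class. The call was lost with the class as a covariate, with or without sex. Over all genes, 27 were called, 0 with the class and sex and 7 with the class alone. From chronic to 2 weeks, Egr1 was higher by 1.40 ± 0.21 (edgeR adjusted p = 0.000178), Egr2 by 3.39 ± 0.32 (adjusted p = 1.64e-07) and Egr4 by 1.18 ± 0.18 (adjusted p = 0.000235), among 0.824% of genes called and 0.507% called higher. Egr3 differed by 0.01 ± 0.22. All chronic libraries were of the high and all 2W libraries of the low pseudogene class, so these 3 rises cannot be told apart from the class.

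The members were next set against each other within each library, a measure that does not depend on library scaling. These tests were added after the data were seen, when Egr3 was already known as the member without a call. In PFC the Egr3 ratios follow from the changes given above, so their p-values are not separate support for them. In saline PFC the log2 ratio of Egr3 to Egr2 counts averaged 1.15, and in chronic PFC 4.75, a difference of 3.61 (exact two-sided permutation p = 0.000333, the smallest that 3003 arrangements give, 0.0015 adjusted over 36 tests, n = 8 and 6). The ratio of Egr3 to Egr1 differed by 1.46 and that of Egr3 to Egr4 by 1.40, each with the same exact p and with no overlap between chronic and saline libraries. How often ratios of other gene pairs show no overlap was not counted, for this or any ratio below. As shares of the summed Egr level per kilobase of exon, Egr3 had a median of 6.74% in saline and 15.9% in chronic PFC. Egr2 had 3.85% and 0.753% by that measure. Egr1 kept the largest share, at 71.0% and 63.8%. Within the high pseudogene class the 3 differences were 1.45, 3.63 and 1.51 for Egr1, Egr2 and Egr4 (exact p = 0.00606 each, n = 8 and 3).

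At 24 h in PFC, Egr3 was still higher relative to Egr1 by 0.75 (exact p = 0.003, n = 9 and 6), to Egr2 by 2.10 (exact p = 0.0014) and to Egr4 by 0.85 (exact p = 0.002). Within the high pseudogene class the differences were about as large, at 0.75, 2.16 and 0.97, but none passed (exact p of 0.0333, 0.0167 and 0.025, adjusted 0.11, 0.0719 and 0.0875, n = 7 and 3). In the low class they were 0.75, 1.95 and 0.71, without overlap, at the smallest p possible (exact p = 0.1, adjusted 0.233, n = 2 and 3). At 2 weeks none of the 3 ratios passed, with differences of 0.05 to 0.23, or of 0.06 to 0.13 within the low class. Without the shallow replicate 10 they were 0.26, 0.47 and 0.46, with unadjusted exact p-values of 0.013, 0.0152 and 0.00866 (n = 6 and 6). Egr2 also moved apart from Egr1 and Egr4 in PFC. The ratio of Egr2 to Egr1 differed from saline by -2.15 in chronic and by -1.35 in 24h libraries, and that of Egr2 to Egr4 by -2.21 and -1.26. None of the 4 overlapped saline, again without a share over other gene pairs to set beside it. Egr4 and Egr1 moved together: their ratio passed in 0 of the 6 comparisons of a stage with saline, and differed by 0.06 in chronic PFC (exact p = 0.707, n = 8 and 6).

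**Figure D3:**
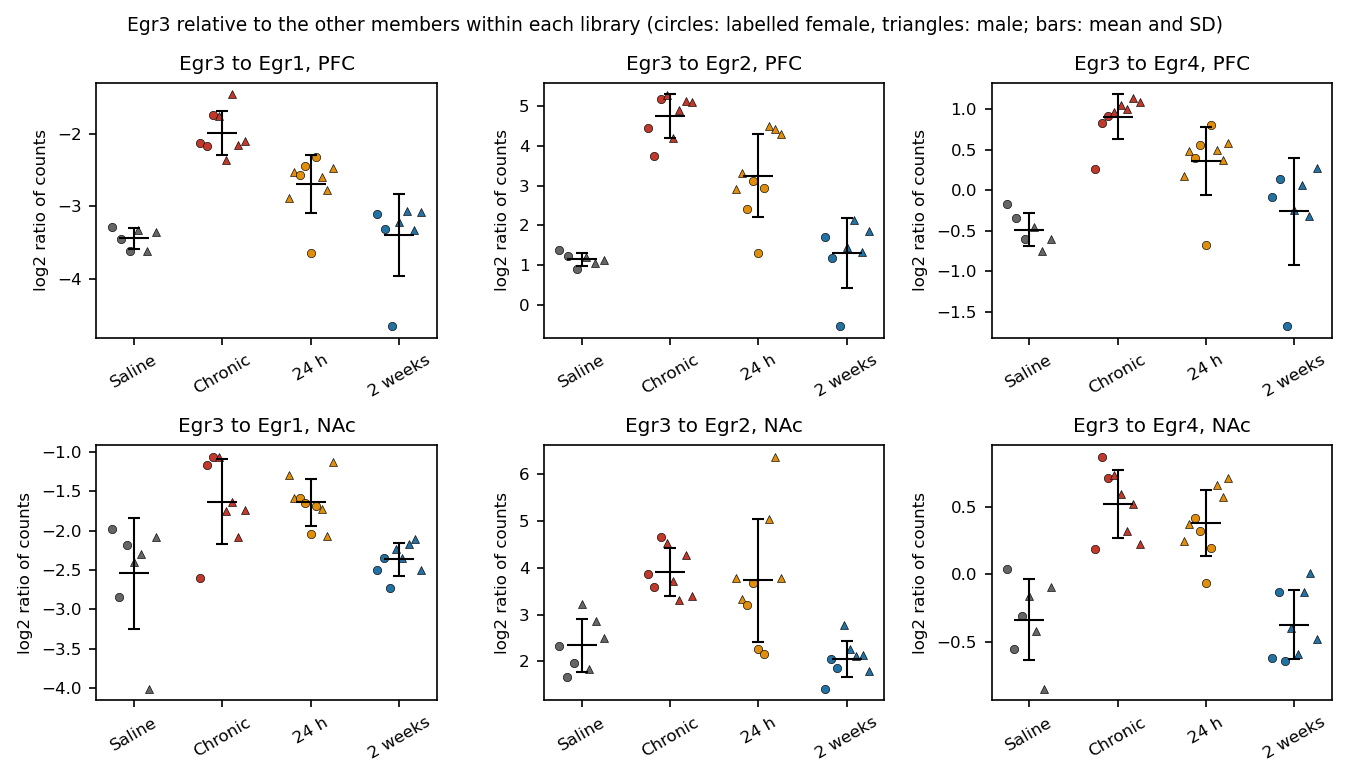
Log2 ratio of Egr3 counts to those of Egr1, Egr2 and Egr4 (y axis) within each library, by drinking condition (x axis), in PFC (upper row) and NAc (lower row), with the mean and SD. In PFC all 3 ratios of the 8 chronic libraries lie above every saline library, and in NAc those to Egr2 and Egr4 do.

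In NAc, none of the 4 members was called against saline by edgeR at any stage. That held under chronic morphine, where 1.69% of 18382 genes were called, at 24 h (0.163%) and at 2 weeks (0.00544%). At an unadjusted edgeR p under 0.05, Egr2 under chronic morphine and Egr1 at 2 weeks were the members that passed. So did 15.2% and 6.44% of all genes in these comparisons, so such a pass was common. Egr2 had a median of 4.69 CPM (0.680 to 13.9) in saline and 2.88 CPM (0.485 to 4.76) under chronic morphine, with a log2 fold change of -1.26 ± 0.55 (edgeR adjusted p = 0.269). Egr1 went from a median of 142 CPM to 124 CPM (43.0 to 160) and a log2 fold change of -0.43 ± 0.28 (adjusted p = 0.51). Egr4 had 30.1 CPM (8.91 to 67.1) and 31.8 CPM (6.22 to 46.1), with -0.39 ± 0.39 (adjusted p = 0.696), and Egr3 26.9 CPM (4.96 to 54.2) and 43.5 CPM (7.08 to 76.6), with 0.48 ± 0.42 (adjusted p = 0.639). The groups overlapped for all 4. At 24 h the NAc medians were 167 CPM for Egr1 (45.4 to 287), 4.21 CPM for Egr2 (0.131 to 14.5), 52.4 CPM for Egr3 (10.9 to 69.4) and 42.7 CPM for Egr4 (7.30 to 72.5), again overlapping saline, with log2 fold changes from -0.44 for Egr2 to 0.60 for Egr3. Without replicate 24, the library with high cortical markers, they ran from -0.47 to 0.57 for the same members. Under chronic morphine, the NAc 95% interval of Egr2, from -2.39 to -0.13, ended short of its chronic PFC estimate of -3.35. Those of Egr1, -1.01 to 0.15, and Egr4, -1.19 to 0.42, ended short of -1.30 and -1.26 in PFC. The PFC estimates carry their own error, and the difference between regions is tested below. Smaller falls lay within each interval, so the spread between NAc libraries limits what the test could show.

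That spread moved with the striatal markers. Their summed level ranged from 251 to 4156 CPM in saline NAc, 312 to 6450 in chronic, 736 to 5798 at 24 h and 1876 to 5532 at 2 weeks, with libraries 6, 25, 2 and 23 the lowest. Across the 32 NAc libraries, which share these differences in tissue makeup, its logarithm correlated with log2 CPM at r = 0.96 for Egr3, 0.85 for Egr4, 0.77 for Egr1 and 0.67 for Egr2, given as a description. In PFC, the cortical marker sum correlated at 0.51 with Egr3 and between -0.19 and 0.05 with the other 3.

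**Figure D4:**
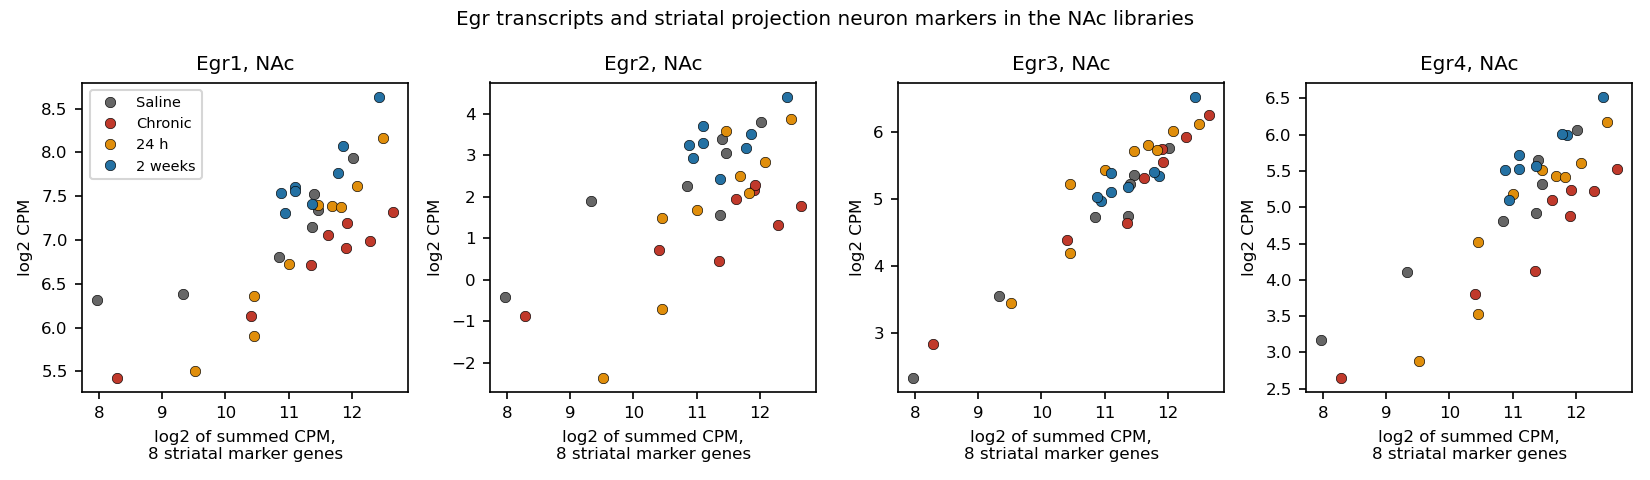
Level of each member on the log2 CPM scale (y axis) against the log2 of the summed CPM of 8 striatal projection neuron markers (x axis) in the 32 NAc libraries, coloured by drinking condition. Egr3 follows the marker sum most closely (r = 0.96) and Egr2 least (r = 0.67).

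With a tissue score (striatal minus cortical marker level) as a covariate, the NAc estimates came nearer to those of PFC. Under chronic morphine all members but Egr3 were then called lower, Egr1 at -0.73 ± 0.16 (edgeR adjusted p = 0.0115), Egr2 at -1.77 ± 0.44 (adjusted p = 0.0228) and Egr4 at -0.87 ± 0.22 (adjusted p = 0.0284), with 1.6% of genes called lower. Egr3 was at -0.05 ± 0.24 (adjusted p = 0.951). With 2 surrogate variables the same 3 members were called lower, as were 2.85% of all genes. With the pseudogene class and sex as covariates, in contrast, none was called, and the estimates were 0.15 for Egr1, -0.28 for Egr2, 1.08 for Egr3 and 0.39 for Egr4. The NAc levels of Egr1, Egr2 and Egr4 under chronic morphine thus depended on the covariates chosen.

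The ratios within NAc libraries, also tested after the data were seen, passed with all libraries under chronic morphine and at 24 h. Under chronic morphine, Egr3 was higher relative to Egr2 by 1.58 and relative to Egr4 by 0.85, with no overlap with saline (exact p = 0.000155 each, n = 8 and 7, 0.0015 adjusted over 36 tests). Relative to Egr1 it was higher by 0.91 (exact p = 0.00886, adjusted 0.0213, n = 8 and 7). At 24 h the differences were 0.90 to Egr1 (exact p = 0.000437, n = 9 and 7), 1.39 to Egr2 (exact p = 0.0151) and 0.72 to Egr4 (exact p = 0.000262). At 2 weeks they lay between -0.29 and 0.18 and none passed. Leaving out the 4 libraries with the lowest Drd1 gave 0.69, 1.56 and 0.76 under chronic morphine (exact p of 0.00758, 0.00126 and 0.00126) and 0.60, 1.03 and 0.55 at 24 h (exact p of 0.00233, 0.0389 and 0.00233). Within the high pseudogene class, against 4 saline males, the chronic ratios to Egr2 and Egr4 were higher by 1.31 and 0.90 (exact p = 0.00202 each, 0.0339 adjusted over 56 tests, n = 8 and 4), while that to Egr1, at 1.06, overlapped saline and did not pass (exact p = 0.0182, adjusted 0.0728). At 24 h in that class the ratios to Egr1 and Egr4 were higher by 0.998 and 0.781 (exact p = 0.00303 each, adjusted 0.0339, n = 7 and 4), while that to Egr2, at 1.18, did not pass (exact p = 0.179, adjusted 0.4). No ratio passed in the low class at 24 h, where 0.1 was the smallest p possible (exact test, n = 2 and 3), or at 2 weeks, and no single member passed within a class in NAc at any stage.

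Between times in NAc, no member was called by edgeR: 0.087% of genes were called between chronic and 24 h, 1.88% between chronic and 2 weeks and 0.267% between 24 h and 2 weeks. From chronic to 2 weeks the log2 differences were 1.02 ± 0.28 for Egr1 (edgeR adjusted p = 0.0558), 2.01 ± 0.55 for Egr2 (adjusted p = 0.0541), 0.03 ± 0.41 for Egr3 and 1.03 ± 0.39 for Egr4 (adjusted p = 0.208). With the tissue score Egr1, Egr2 and Egr4 were called higher, among 1.98% of genes, and with 2 surrogate variables the same 3 among 3.03%. At 2 weeks the NAc medians were 191 CPM for Egr1 (159 to 398), 9.53 CPM for Egr2 (5.27 to 21.2), 38.4 CPM for Egr3 (31.2 to 92.6) and 50.1 CPM for Egr4 (34.2 to 92.0). As in PFC, this comparison cannot be told apart from the pseudogene class.

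Whether the effect of morphine differed between the regions was tested on all 62 libraries, without pairing them by number. The chronic effect on Egr2 was smaller in size in NAc by a log2 difference of 2.11 ± 0.65 (unadjusted p = 0.002, edgeR adjusted p = 0.856), and no member was called for the chronic, 24 h or 2 week effect, with 0.0311%, 0.0208% and 0.00519% of genes called. A fall in PFC and no call in NAc was therefore not shown to be a difference between the regions for any member. Of the 22 other immediate early genes, 5 did pass for chronic morphine: Ccn1, Dusp1, Dusp6, Ier2 and Trib1. Not all of these calls held: 3 of the 5 remained with a replicate block (Dusp6 and Ier2 lost, edgeR adjusted p = 0.0506 and 0.109), 3 with number 27 as male (Dusp1 and Dusp6 lost, 0.074 and 0.166), and without the 4 lowest-Drd1 libraries Trib1 remained alone (1.47 ± 0.23, adjusted p = 0.0025). Of 32 fits that left out 1 number, Ccn1 and Trib1 were called in 32, Dusp1 and Ier2 in 26 and Dusp6 in 18. In libraries with the same number in both regions, deviations from the group means correlated at 0.52 for Egr2 and between 0.27 and 0.40 for the other 3 members (n = 30, a description).

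Sexes were taken as labelled and then compared. In PFC at 24 h, Egr2 had a median of 21.9 CPM (13 to 25.6) in 4 females and 6.75 CPM (2.74 to 13.5) in 5 males, with the 3 lowest males in replicates 22, 23 and 24. Those 3 males were of the high pseudogene class, and replicates 16 and 17 of the low class. Within males alone Egr2 was lower than saline, at a log2 fold change of -2.74 ± 0.32 (edgeR adjusted p = 6.4e-05), and so was Egr4 at -1.20 ± 0.22 (adjusted p = 0.0184), among 0.16% of genes called lower. Within females alone Egr2 was at -0.77 ± 0.45 (adjusted p = 1), with 0.0237% of genes called lower. Saline females were all of the low and 24h females all of the high class, so that comparison cannot be told apart from the class. The test of the difference itself, male minus female, gave -1.98 ± 0.58 for Egr2 (unadjusted p = 0.00188, edgeR adjusted p = 0.769) and -1.03 ± 0.35 for Egr4 (adjusted p = 1), so no sex difference passed. With the pseudogene class as a covariate the difference for Egr2 was larger, at -4.18 ± 0.83, and again did not pass (edgeR adjusted p = 0.0673).

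Under chronic morphine in PFC, Egr2 medians were 3.11 CPM in females and 3.77 CPM in males, against 30.9 and 52.4 CPM in saline. Males alone gave 3 members called lower, at -1.36 ± 0.25 for Egr1 (edgeR adjusted p = 0.0111), -3.76 ± 0.34 for Egr2 (adjusted p = 1.29e-06) and -1.59 ± 0.22 for Egr4 (adjusted p = 0.000324), among 0.343% of genes called lower. These males were all of the high pseudogene class. Females alone gave no call, with -1.24 ± 0.31 for Egr1 (adjusted p = 0.467), -2.93 ± 0.52 for Egr2 (adjusted p = 0.066) and -0.93 ± 0.28 for Egr4 (adjusted p = 1), among 0.0415% of genes called lower, from 3 saline and 3 chronic libraries that include number 27. The saline females were all of the low and the chronic females all of the high class, so this comparison cannot be told apart from the class. No member was called in any of the 6 sex comparisons, in which 0%, 0.0111% and 0% of genes were called for chronic, 24 h and 2 weeks in PFC and 0.0544%, 0.087% and 0% in NAc.

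**Figure D5:**
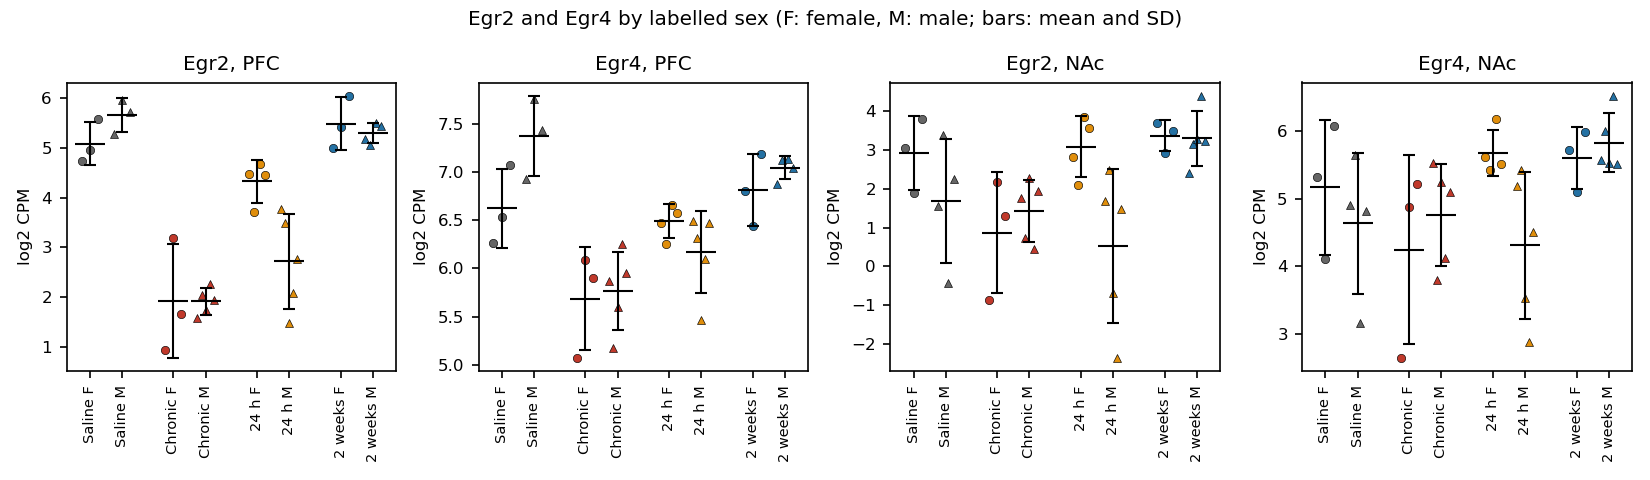
Egr2 and Egr4 on the log2 CPM scale (y axis) in PFC and NAc by drinking condition and labelled sex (x axis; F female, M male), with the mean and SD. At 24 h in PFC, 4 of the 5 males lie below all 4 females for Egr2.

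Other genes of the pathway were counted from lists. The co-repressors Nab1 and Nab2 were not called in any morphine comparison: under chronic morphine in PFC they were at -0.14 ± 0.16 (edgeR adjusted p = 0.924) and -0.35 ± 0.14 (adjusted p = 0.501), and in NAc at 0.06 ± 0.12 and -0.13 ± 0.23. Both were lower in NAc than in PFC of saline mice. Of 22 upstream genes (Srf, the Elk factors, Creb1, Crem and genes of the ERK cascade among them), 0 were called against saline at any stage in either region (over all genes 0.417%, 0.0779% and 0.00557% in PFC and 1.69%, 0.163% and 0.00544% in NAc), and their median log2 fold change in chronic PFC was 0.05, against 0.01 over all genes. The transcript of Srf, the serum response factor, was at -0.20 ± 0.12 there, and that of Creb1 at 0.21 ± 0.11.

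Among 12 genes reported as neuronal targets of Egr proteins, 1 was called lower in PFC under chronic morphine and 1 at 24 h, against 0.306% and 0.0724% of all genes, both times Arc, a regulator of synaptic receptor traffic that is itself an immediate early gene. Arc was at -2.23 ± 0.22 (edgeR adjusted p = 2.44e-07) and -1.64 ± 0.21 (adjusted p = 6.33e-05). The median of the list was 0.06 at both times. In NAc 0 of the 12 were called at these times. Of the Schwann cell targets of Egr2, 5 of 6 were measured above the filter in PFC and all 6 in NAc, and 0 were called in either region at any stage.

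Most of the other immediate early genes were also lower in PFC. Of 22, 0 were called higher and 15 lower under chronic morphine, where 0.306% of all genes were called lower, with a median log2 fold change of -1.04 against 0.01 over all genes. The largest falls were those of Ccn1, a secreted matrix protein (-2.35 ± 0.23), Arc, Fos, a subunit of the AP-1 transcription factor (-2.17 ± 0.19), and Nr4a1, an orphan nuclear receptor (-1.92 ± 0.19). At 24 h 9 were called lower, against 0.0724% of all genes, with Ccn1 at -1.98 ± 0.22, Arc at -1.64 ± 0.21, Ier2 at -1.39 ± 0.19 and Dusp1, a phosphatase of MAP kinases, at -1.38 ± 0.17. In NAc, Fos (-1.15 ± 0.19, edgeR adjusted p = 0.00201) and Btg2 (-0.56 ± 0.13, adjusted p = 0.0205) were called lower under chronic morphine and Fos (-1.05 ± 0.18, adjusted p = 0.0176) at 24 h, in comparisons that called 1.69% and 0.163% of all genes.

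The genes whose levels followed each member most closely differed between Egr3 and the rest. Over 12532 genes, likeness was taken as the smaller of the correlations of log2 CPM over the 30 PFC and the 32 NAc libraries, which share treatment and, in NAc, tissue makeup. For Egr2 the closest were Nr4a1 (0.97 in PFC, 0.94 in NAc), Junb (0.96 and 0.92) and Fosl2 (0.85 and 0.86). Egr1 was followed by Fosb (0.88 and 0.91), Fosl2 (0.87 and 0.87) and Nr4a1 (0.85 and 0.96), and Egr4 by Fosb (0.91 and 0.95), Fosl2 (0.90 and 0.89) and Phlda1 (0.88 and 0.89). For Egr3 they were Homer1, which encodes a synaptic scaffold protein (0.91 and 0.97), the kinase gene Mapk4 (0.84 and 0.92) and Hlf, a transcription factor gene (0.83 and 0.92). Homer1 was itself among the other immediate early genes counted above. Among the members, Egr1 and Egr4 correlated at 0.94 in PFC and 0.96 in NAc, and Egr2 and Egr3 at 0.09 and 0.73.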

How the data were processed

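Total RNA libraries with read pairs of 75 bases were made from the punches, per the labels' protocols. The authors deposited raw counts per mouse gene, 1 column for each library, all of them whole. The submitters' processing notes name FastQC, cutadapt, STAR, RSEM, Trimmomatic and HISAT2 and the build GRCm38 without versions or roles, and do not give the counting program or its use of strand. Rows that name no gene stayed out: medians of 5.43% of reads outside genes, 0.83% ambiguous, 0.57% unaligned (up to 21.13%) and 14.69% aligned to several places. Of 46078 identifiers, 45229 matched a GENCODE M21 symbol.

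Each region was fitted with edgeR 4.0.16 (R 4.3.3): TMM scaling, filterByExpr, cell means of treatment by sex, glmQLFTest on contrasts averaged over the sexes, and Benjamini-Hochberg adjustment over all genes tested, with calls at an adjusted p under 0.05. A fit of all 62 libraries tested the regions. Log2 CPM used a prior count of 2. Within-library ratios were compared by exact two-sided permutation tests. The fit was tested on simulated data. Alternatives were DESeq2 1.42.0, its size factors, no filter, no sex term, 2 surrogate variables (sva 3.50.0), a tissue score, 1 sex alone, each library left out and a replicate block. Added after seeing the data were number 27 as male, the 4 lowest-Drd1 NAc libraries left out, the pseudogene class and the ratio tests.

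The members and gene lists were chosen with earlier results of these data known. All 4 members are named throughout. From other lists, up to 4 called genes with the largest change at the chronic and 24 h stages are named, the co-repressors always, and the 3 genes most like each member. Srf, Creb1 and the genes named for a region difference were named outside that rule, after their values were seen. Rat libraries were not analysed here, and a comparison of coding sequences is not reported here.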

Additional observations from a re-analysis of the deposited data

Results flagged for a closer look

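Of 32 groups of libraries (4 members, 2 regions and 4 conditions), 4 held a library far from the rest of its group, where chance gives about 1 in 20. In PFC at 24 h, replicate 22 was low for Egr1, at 8.55 log2 CPM (374 CPM), and for Egr4, at 5.46 log2 CPM (44.0 CPM). The same library was the lowest for Egr2, at 2.74 CPM. In PFC at 2 weeks, replicate 10 was low for Egr3, at 5.51 log2 CPM (45.5 CPM), and it is the library with 5182601 reads. In NAc at 2 weeks, replicate 14 was high for Egr3, at 6.53 log2 CPM (92.6 CPM).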

How the results depend on the processing

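The falls of Egr1, Egr2 and Egr4 in chronic PFC and of Egr2 at 24 h in PFC were called in each of the 30 fits that left out 1 library, with median-of-ratios size factors, without the filter on low counts, with DESeq2, without sex and with number 27 counted as male. The lower level of all 4 members in saline NAc was called in every alternative run. The number of members called moved as follows. In PFC, chronic against saline gave 3 members, 1 with the pseudogene class and sex, and 0 in females. There, 24 h against saline gave 1 member, 2 with 2 surrogate variables, with the tissue score and in males, and 0 with the class and sex and in females. The added member was Egr4 (adjusted p = 0.0376, 0.0137 and 0.0184). The single member of 24 h against chronic became 0 without sex, with 2 surrogate variables, with the class and sex, in females, in males and with number 27 as male, and 0 to 1 with 1 library left out. It was lost without replicate 2, 6, 16, 17, 18, 20, 21, 24, 25, 27, 28, 29 or 30. For 2 weeks against chronic the 3 members became 0 with the class and sex and 1 in females. For 2 weeks against 24 h the 1 member became 2 with the tissue score, 0 with the class with or without sex, and 0 in females. In NAc, chronic against saline went from 0 to 3 members with 2 surrogate variables and with the tissue score. NAc 2 weeks against chronic went from 0 to 2 with DESeq2, 3 with 2 surrogate variables and with the tissue score, 1 without NAc libraries 2, 6, 23 and 25, and 0 to 2 with 1 library left out (above 0 without replicate 2, 5, 6, 17, 22 or 23). NAc 2 weeks against 24 h went from 0 to 3 with 2 surrogate variables and 1 with the tissue score. The cause of these moves was not tested.

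Estimates that changed sign were all uncalled in the fits with treatment and sex. In NAc from chronic to 24 h (0.11 to 0.82 with all libraries) 7 of 48 alternative estimates changed sign, among them all 4 members in males (-0.41 to -0.31), and from 24 h to 2 weeks 6 of 48, among them Egr1 from 0.69 to -0.17, Egr2 from 1.19 to -0.22 and Egr4 from 0.63 to -0.50 with the class and sex. Of the sex differences, 17 of 96 in NAc and 3 of 84 in PFC changed sign. For the other comparisons, with the class and sex they were -0.049 for Egr1 and -0.68 for Egr2 in PFC at 2 weeks against saline and -0.17 for Egr3 in PFC at 2 weeks against chronic. In NAc they were 0.15 for Egr1 and 0.39 for Egr4 under chronic morphine, 0.20 for Egr1 and 0.0049 for Egr2 at 24 h, and -0.21 for Egr2, -0.062 for Egr3 and -0.11 for Egr4 at 2 weeks, and for 2 weeks against chronic -0.12 for Egr1, -1.14 for Egr3 and -0.50 for Egr4. With the class but not sex, they were 0.071 for Egr4 (PFC 2 weeks against saline), 0.23 for Egr3 (PFC 2 weeks against 24 h), 0.0086 for Egr1 (NAc 24 h against saline) and -0.29 for Egr3 (NAc 2 weeks against chronic). In males they were, in PFC, -0.14 for Egr3 at 24 h and -0.057 for Egr1 and -0.36 for Egr2 at 2 weeks against saline, -0.24 for Egr3 from chronic to 24 h and 0.38 from 24 h to 2 weeks, and in NAc 0.020 under chronic morphine and -0.29 at 24 h for Egr4. In females they were 0.19 for Egr4 in PFC at 2 weeks and -0.13 for Egr3 from chronic to 2 weeks, and in NAc 0.31 for Egr1 and 0.12 for Egr2 at 24 h, and for Egr3 -0.0014 at 2 weeks and -0.19 from chronic to 2 weeks. With 2 surrogate variables they were -0.036 for Egr2 in PFC at 2 weeks, -0.073 and 0.18 for Egr3 in PFC from chronic to 24 h and from 24 h to 2 weeks, -0.039 for Egr3 in chronic NAc and -0.42 for Egr4 in NAc at 24 h. With the tissue score the same order gave -0.074 for Egr2 in PFC at 2 weeks, 0.021 for Egr3 in PFC from 24 h to 2 weeks, -0.048 for Egr3 in chronic NAc and -0.071 for Egr4 in NAc at 24 h. Without sex, Egr3 in PFC was at -0.010 from chronic to 24 h and 0.048 from 24 h to 2 weeks. Without NAc libraries 2, 6, 23 and 25, the region differences of Egr3 were -0.031 (chronic) and -0.071 (2 weeks), and NAc values were -0.19 for Egr4 at 24 h, -0.22 for Egr3 from chronic to 2 weeks and -0.18 for the ratio of Egr3 to Egr1 at 2 weeks. With 1 library left out, ranges that held both signs in PFC were -0.14 to 0.17 for Egr2 and -0.20 to 0.041 for Egr4 at 2 weeks, and for Egr3 -0.13 to 0.18 from chronic to 24 h, -0.17 to 0.14 from chronic to 2 weeks and -0.14 to 0.090 from 24 h to 2 weeks. In NAc they were -0.17 to 0.29 for Egr4 and -0.26 to 0.11 for Egr1 at 24 h and -0.22 to 0.24 for Egr3 from chronic to 2 weeks. The ratio of Egr3 to Egr1 at 2 weeks ranged from -0.0072 to 0.26 in PFC and from -0.068 to 0.27 in NAc, and that of Egr3 to Egr4 from -0.12 to 0.023 in NAc.

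Counts over all genes varied more than the members. Chronic PFC had 75 genes called, 137 with DESeq2 and 11 with the class and sex. Chronic NAc had 311, 483 with DESeq2, 571 with the tissue score, 1054 with 2 surrogate variables, 161 without sex, 185 without the filter, 194 with number 27 as male, 107 without the 4 lowest-Drd1 libraries and 69 with the class and sex. PFC 24 h had 14 and DESeq2 37, and NAc 24 h had 30 and 102. PFC 2 weeks against chronic had 148, 341 with DESeq2 and 0 with the class and sex.

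With a replicate block over both regions no member's call changed: the region difference of the chronic effect on Egr2 was 2.20 (edgeR adjusted p = 0.537), and saline NAc against PFC was -2.90 for Egr1, -2.94 for Egr2, -1.96 for Egr3 and -2.12 for Egr4. Deviations of same-numbered libraries correlated at -0.042 to 0.290 (median 0.122), 19 of 30 numbers were over 0.1 and 19 of 30 correlated best with their own number, so the numbers were not taken as a pairing. The pseudogene class was the same in both regions for 30 of 30 numbers. Within a region the groups share no numbers, so no paired analysis was possible there.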
